A study of Mus musculus with 2 samples.

Results

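The 10 genes described here make, receive or pass on the signals of prostaglandins and leukotrienes, the lipid mediators that cells build from arachidonic acid. They were Alox5, Alox5ap, Ltc4s, Lta4h, Ltb4r1, Ptgs1, Ptgs2, Ptges, Hpgds and Ptger4, chosen by name, and they were 10 of the 24785 genes listed in either library. All 10 were listed in both libraries. Their transcripts were counted in living CD45+ cells, that is leukocytes, sorted from the lungs of adult wild-type C57BL/6N mice. The BLM library came from lungs taken on day 15 after bleomycin, a chemotherapeutic agent used to induce pulmonary fibrosis in mice. The naive library came from mice with no treatment. Each library was a pool of cells of 3 mice, and there was 1 library per group, so that treatment, library and mice cannot be told apart and no test between the groups was possible.

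In the leukotriene branch, 5-lipoxygenase oxidises arachidonic acid with the help of its activating protein. The product is then turned either into leukotriene B4, a strong attractant of neutrophils, or into the cysteinyl leukotrienes, which contract airways and make vessels leak. In the prostaglandin branch, the cyclooxygenases COX-1 and COX-2 make prostaglandin H2, and terminal synthases convert it into prostaglandin E2, prostaglandin D2 and others. In the lung, alveolar macrophages, neutrophils and mast cells are known for leukotrienes, and prostaglandin E2 is known to restrain fibroblasts.

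After filtering, 4526 BLM cells (22126042 UMIs, median 2437 per cell) and 3925 naive cells (17734002 UMIs, median 2759) were kept, and 22 cell barcodes were shared between the libraries. A UMI (unique molecular identifier) marks 1 captured transcript. Cells were placed in classes by counting how many of 8 marker genes per class each cell expressed, and the class names mean cells that carry those markers. A class was given to 3532 BLM cells (78.0%) and 3427 naive cells (87.3%). Of these, 19.3% and 14.2% lay at the smallest marker lead allowed. The cells without a class, which include those between a pair of classes such as doublets, held 33.7% of BLM UMIs and 13.8% of naive UMIs. Of the classes, 8 had 50 or more cells in both libraries, namely neutrophils (1026 BLM and 467 naive cells), B cells (598 and 806), T cells (721 and 584), natural killer (NK) cells (127 and 247), alveolar macrophages (175 and 631), macrophages with the complement genes C1qa, C1qb and C1qc (C1q macrophages; 352 and 72), classical monocytes (164 and 165) and nonclassical monocytes (125 and 190). Own markers were among the 10 leading genes in each of these 8 classes. Because cells were chosen by these markers, this gives no separate support to the class names. In BLM, 260 of the 352 C1q macrophages expressed at least 2 of Spp1, Arg1 and Gpnmb, genes known from macrophages of injured tissue, and 0 of the 72 naive ones did. Among alveolar macrophages, 160 of 175 BLM cells and 303 of 631 naive cells did, so these genes were not confined to BLM. Below, the Spp1, Arg1 and Gpnmb cells are those with at least 2 of these genes, and the remaining cells can carry 1 of them. Median depth was 11664 UMIs in the 260 BLM C1q macrophages with these genes, 5860 in the other 92 and 5023.5 in the naive ones. A split by detected genes depends on depth, and whether it separates kinds of macrophage was not tested. Levels are given as UMIs of a gene per 1000000 UMIs of the same cells (CPM) and are compared between classes or libraries, never between genes. Ratios are log2 of BLM over naive. Brackets hold 95% intervals that cover counting error only.

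The cyclooxygenase genes are shown first as sequence, because their levels peaked in different classes. The 250 bases upstream of the RefSeq start of each gene are given in build GRCm38.p6, 5′ to 3′, on the plus strand. Capitals mark matches to 3 motifs chosen after these windows were seen, which are GAGGAAGT (an ETS motif), GGGCGG (a GC box) and TTGCNNAA (a C/EBP motif), searched on both strands. The Ptgs1 window lies at chr2:36230176-36230425 and the Ptgs2 window at chr1:150099781-150100030.
Ptgs1: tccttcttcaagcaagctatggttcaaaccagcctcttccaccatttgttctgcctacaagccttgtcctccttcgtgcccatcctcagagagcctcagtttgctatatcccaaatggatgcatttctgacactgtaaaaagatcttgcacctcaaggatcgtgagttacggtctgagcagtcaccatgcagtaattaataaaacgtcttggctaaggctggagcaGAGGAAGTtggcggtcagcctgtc
Ptgs2: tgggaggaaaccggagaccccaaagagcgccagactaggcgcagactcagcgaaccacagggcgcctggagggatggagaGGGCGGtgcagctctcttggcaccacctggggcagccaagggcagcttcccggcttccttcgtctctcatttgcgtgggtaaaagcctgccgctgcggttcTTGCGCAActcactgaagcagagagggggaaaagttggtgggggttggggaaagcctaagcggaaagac

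The Ptgs1 window held the ETS motif 24 bases upstream of the start and no GC box or C/EBP match. The Ptgs2 window held a GC box 170 bases and a C/EBP match, which reads the same on both strands, 69 bases upstream. Over all 32851 windows of this length, 2.44% held GAGGAAGT, 32.7% held GGGCGG and 9.56% held TTGCNNAA. TATAAA was in neither window and in 12.4% of all windows. The G and C content was 48% for Ptgs1 and 61.6% for Ptgs2. Of the 10 genes, 9 had such a window. Among these, GAGGAAGT was also found for Hpgds, TTGCNNAA also for Hpgds, and GGGCGG also for Alox5, Ltb4r1, Ptges and Ptger4. These matches describe letters only.

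Ptgs1, which encodes COX-1, showed the widest difference between the libraries. The gene lies on chromosome 2, from 36230426 to 36252272 on the plus strand (GRCm38, GENCODE annotation). Over all kept cells the BLM library held 3721 UMIs (168 CPM) and the naive library 216 UMIs (12.2 CPM), a log2 ratio of 3.79 [3.59, 3.99]. The level was 13.8-fold higher in BLM. With the naive class shares the ratio was 3.77, and with naive levels at the BLM shares it was 1.74. In alveolar macrophages it was 281 CPM in BLM (706 UMIs) and 8.85 CPM in naive (58 UMIs), a log2 ratio of 4.99 [4.60, 5.40]. A UMI was seen in 156 of 175 BLM alveolar macrophages (89.1%) and in 44 of 631 naive ones (6.97%). B cells, which served as background, had a UMI in 2.01% and 0.372% of cells. The median depth was 13956 and 9942 UMIs in alveolar macrophages and 1716 and 1970 UMIs in B cells. With each cell thinned to 1000 UMIs, leaving out 3 BLM and 10 naive cells of lower depth, the shares in alveolar macrophages were 23.8% and 0.897%. The same shares in B cells, with 19 and 9 cells left out, were 0.947% and 0.104%. The naive alveolar macrophages thus lay above the naive B cells, at a low level. Their interval of [6.72, 11.4] CPM overlapped those of naive NK cells (17.4 CPM), classical monocytes (8.30 CPM) and neutrophils (7.62 CPM).

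The BLM alveolar macrophages also carried more C1q macrophage markers. The 8 C1q markers summed to 303 CPM in BLM and 110 CPM in naive alveolar macrophages, against 6989 CPM and 12391 CPM in the C1q macrophages themselves. The 8 alveolar macrophage markers summed to 6504 CPM and 7388 CPM, and all 8 were detected in both libraries. Among alveolar macrophages with no C1q marker UMI, Ptgs1 was at 357 CPM [257, 483] in the 15 cells from BLM and at 8.89 CPM [5.43, 13.7] in the 262 from naive. Among those with fewer than 2 of Spp1, Arg1 and Gpnmb, it was at 336 CPM in the 15 cells from BLM and at 8.73 CPM in the 328 from naive. The difference was as large in both subsets as in the class as a whole, but each BLM subset held only 15 cells, with 42 and 46 Ptgs1 UMIs. Whether the class held the same kinds of cell in both libraries was not tested.

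In C1q macrophages Ptgs1 was high in both libraries, at 232 CPM in BLM (881 UMIs) and 189 CPM in naive (73 UMIs), and the ratio of 0.30 [-0.05, 0.66] included 0. A UMI was seen in 67.9% and 41.7% of these cells, whose median depth was 10060 and 5023.5 UMIs. Such shares rise with depth. With the Spp1, Arg1 and Gpnmb cells left out, the BLM level was 226 CPM and the ratio 0.26 [-0.17, 0.69]. In naive lungs the C1q macrophages held 33.8% of all Ptgs1 UMIs and the alveolar macrophages 26.9%. In BLM the C1q macrophages held 23.7%, the alveolar macrophages 19.0% and cells without a class 45.8%. The 26 BLM macrophages with both marker sets were at 394 CPM, and the 6 naive ones at 67.9 CPM.

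Lower levels of Ptgs1 were found in other classes, and in 3 of them the BLM cells that carried it also carried macrophage transcripts. In neutrophils it was 84.0 CPM in BLM (137 UMIs in 67 of 1026 cells) and 7.62 CPM in naive (6 UMIs in 6 of 467 cells), a ratio of 3.46 [2.30, 4.93]. The 67 BLM neutrophils with a Ptgs1 UMI had Spp1 at 5462 CPM and Ear2, an alveolar macrophage gene, at 787 CPM. The 959 others had 158 and 23.7 CPM. The same 67 cells had Ptgs2 at 871 CPM against 2638 CPM, and S100a8, a neutrophil gene, at 4249 CPM against 11555 CPM. Every cell that carried a UMI of any alveolar or C1q macrophage marker was then left out. This left 708 BLM and 307 naive neutrophils, at 46.4 and 4.13 CPM and a ratio of 3.49. That naive level rests on no more than the 6 UMIs of all naive neutrophils, and no interval was computed for the ratio. In NK cells Ptgs1 was 85.4 CPM (24 UMIs in 8 cells) against 17.4 CPM (10 UMIs in 8 cells), a ratio of 2.29 [1.18, 3.52], but 15 of the 24 BLM UMIs were in 1 cell. Without the highest cell of each library 9 and 8 UMIs were left. The 8 BLM NK cells with a UMI had Spp1 at 4240 CPM, and the 119 others 72.6 CPM. In classical monocytes the level was 45.4 CPM (31 UMIs) against 8.30 CPM (6 UMIs), a ratio of 2.45 whose interval began at 1.17, and the 19 BLM cells with a UMI had Spp1 at 646 CPM against 173 CPM in the others. Nonclassical monocytes had 13 UMIs in BLM and 1 in naive, B cells 12 and 3, and T cells 10 and 2, all too few to be compared. The 12 BLM B cells with a Ptgs1 UMI had Spp1 at 29.1 CPM and the others at 317 CPM. In naive neutrophils, NK cells and classical monocytes, the 6, 8 and 5 cells with a Ptgs1 UMI had Spp1 and C1qb at 0. The naive cells without one were also low, with Spp1 at 29.6, 1.79 and 5.72 CPM and C1qb at 10.3, 12.6 and 11.4 CPM. At such levels a value of 0 in so few cells cannot show a difference. The BLM migratory dendritic cells held 7 Ptgs1 UMIs, the naive ILC2s 1 and the naive cDC2s 9. The part of macrophage RNA or mixed droplets in the values of the neutrophils, NK cells and classical monocytes was not tested.

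Ptgs2, which encodes COX-2, was highest in neutrophils among the 8 classes of both libraries. They held 71.1% of its naive UMIs and 47.3% of its BLM UMIs. It lies on chromosome 1, from 150100031 to 150108227 on the plus strand. Neutrophils had 2377 CPM in BLM (3876 UMIs) and 3769 CPM in naive (2969 UMIs), a ratio of -0.66 [-0.73, -0.60]. A UMI was seen in 781 of 1026 BLM neutrophils (76.1%) and 424 of 467 naive ones (90.8%), against 2.68% and 2.36% of B cells. Thinned to 1000 UMIs, with 125 and 12 neutrophils left out, the neutrophil shares were 71.7% and 85.1% and the B cell shares 1.06% and 0.796%. Median depth in neutrophils was 1340.5 and 1594 UMIs. Per neutrophil, Ptgs2 was therefore lower in BLM, by less than 2-fold. Yet over all kept cells it was higher in BLM, at 371 CPM against 235 CPM, a ratio of 0.65 [0.60, 0.71]. Neutrophils held 7.37% of the UMIs of the BLM library and 4.44% of the naive library. With the share of UMIs of each of the 8 classes and of the remaining cells held at its naive value, the ratio was -0.18. With naive levels and the BLM shares it was 0.82.

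**Figure D1:**
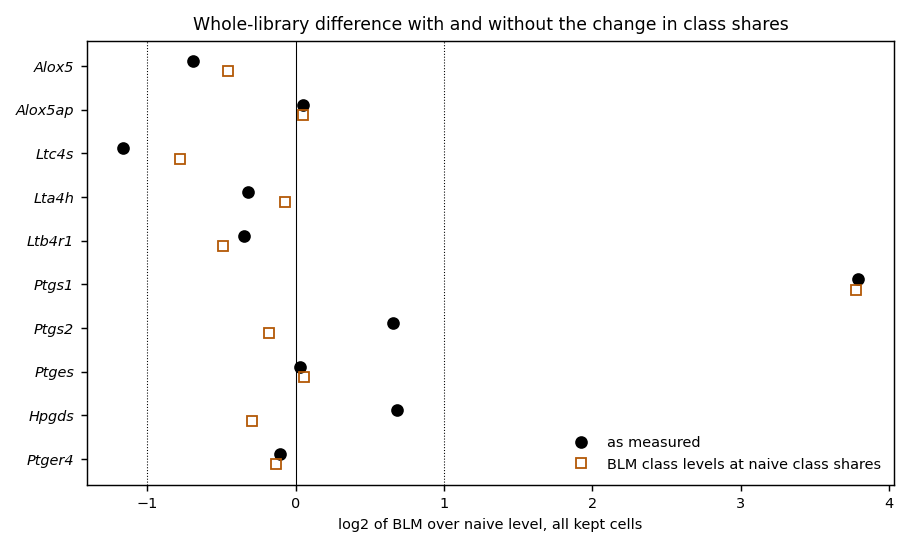
Log2 ratio of BLM over naive for each gene over all kept cells (x axis), as measured (filled circles) and with the BLM level of every class weighted by the share of UMIs the class had in naive (open squares). Dotted lines mark 2-fold. Ptgs1 stayed at 3.77, whereas Ptgs2 moved from 0.65 to -0.18 and Hpgds from 0.68 to -0.29.

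Other classes also expressed Ptgs2. Conventional dendritic cells of type 2 (cDC2; 45 and 85 cells) had 674 CPM in BLM and 587 CPM in naive, a ratio of 0.20 [-0.05, 0.45]. C1q macrophages had 332 and 233 CPM, a ratio of 0.51 [0.20, 0.84]. The 10% of BLM C1q macrophages with the most Ptgs2 held 73.2% of its UMIs, and 1 cell held 102. Classical monocytes had 122 and 125 CPM, a ratio of -0.03 [-0.48, 0.41]. Nonclassical monocytes had 64.3 and 45.4 CPM, a ratio of 0.50 [-0.33, 1.29]. NK cells held 4 UMIs in each library. In alveolar macrophages the gene was low, at 41.3 CPM in BLM (104 UMIs) and 14.2 CPM in naive (93 UMIs), a ratio of 1.54 [1.13, 1.96]. T cells had 29.4 CPM (63 UMIs) against 12.8 CPM (22 UMIs), a ratio of 1.19 [0.47, 1.97]. In BLM, 21 of the 63 UMIs were in 1 T cell, and without the highest cell of each library the ratio was 0.67 and its interval included 0. The naive T cells were near the B cell level of 9.17 CPM.

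In type 2 innate lymphoid cells (ILC2s; 29 BLM and 65 naive cells, fewer than the 50 needed for the comparison) Ptgs2 was at 1232 CPM in BLM (156 UMIs in 12 cells) and 107 CPM in naive (16 UMIs in 4 cells). One BLM cell held 75 of the 156 UMIs and 1 naive cell 13 of the 16. Without these cells the levels were 666 and 20.6 CPM, from 81 and 3 UMIs. Cells with basophil or mast cell markers had 4971 CPM in BLM (80 UMIs in 4 of 5 cells) against 1741 CPM in naive (66 UMIs in 6 of 11 cells), the BLM level being above that of neutrophils. Stromal cells that passed the sort had 511 CPM in BLM (136 UMIs in 9 of 35 cells) against 121 CPM in naive (11 UMIs in 3 of 18 cells). The BLM migratory dendritic cells had 231 CPM.

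Detection of the cyclooxygenase genes overlapped to a different degree in each class. Of 175 BLM alveolar macrophages, 113 (64.6%) had a UMI of Ptgs1 and none of Ptgs2, 43 (24.6%) had both and 1 had Ptgs2 without Ptgs1. Of 631 naive ones, 40 (6.34%) had Ptgs1 without Ptgs2, 73 (11.6%) had Ptgs2 without Ptgs1 and 514 (81.5%) had neither. Of the BLM neutrophils, 734 (71.5%) had Ptgs2 without Ptgs1, 47 (4.58%) had both and 20 (1.95%) had Ptgs1 without Ptgs2. Of the naive neutrophils, 89.5% had Ptgs2 without Ptgs1, 1.28% had both and 0 had Ptgs1 without Ptgs2. Among BLM C1q macrophages 38.6% had Ptgs1 without Ptgs2, 103 cells (29.3%) had both and 35 cells (9.94%) had Ptgs2 without Ptgs1. In the naive C1q macrophages these shares were 29.2%, 12.5% and 20.8%. In the BLM macrophages of both classes, most cells with Ptgs2 thus also had Ptgs1, but so did most cells without Ptgs2. Among those without Ptgs2, 113 alveolar macrophages had Ptgs1 and 18 did not, and 136 C1q macrophages had it and 78 did not. Shares of this kind rise with depth, and 95.5% of BLM B cells and 97.3% of naive B cells had neither gene.

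**Figure D2:**
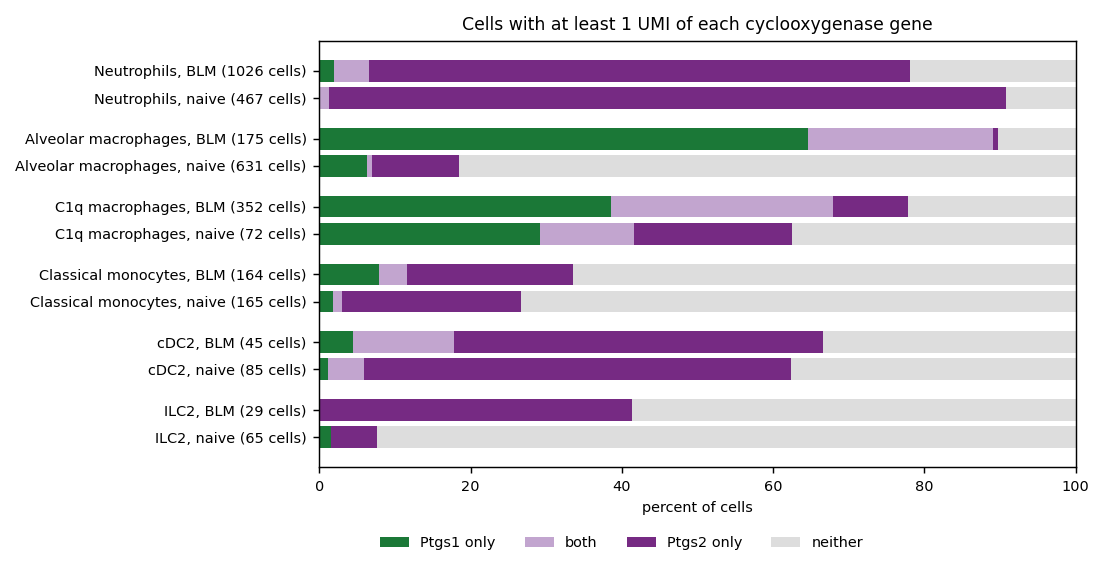
Percent of cells (x axis) with at least 1 UMI of Ptgs1 only, of both genes, of Ptgs2 only or of neither, by class and library, not corrected for depth. In BLM alveolar macrophages 64.6% had Ptgs1 only, against 6.34% in naive, whereas neutrophils of both libraries had mostly Ptgs2 only.

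Alox5 encodes 5-lipoxygenase and lies on chromosome 6, from 116410077 to 116461178 on the minus strand. Among classes with 50 or more cells in naive lungs, alveolar macrophages had the highest level (291 CPM, 1906 UMIs), followed by neutrophils (234 CPM), ILC2s (228 CPM) and C1q macrophages (194 CPM), and the intervals of these last 3 overlapped. The naive alveolar macrophages held 72.3% of all Alox5 UMIs of their library. In BLM, alveolar macrophages (190 CPM, 478 UMIs) and neutrophils (180 CPM, 294 UMIs) overlapped, and C1q macrophages lay below both at 80.4 CPM. The ratio was -0.61 [-0.76, -0.47] in alveolar macrophages, -0.37 [-0.64, -0.10] in neutrophils and -1.27 [-1.64, -0.89] in C1q macrophages. In the C1q macrophages with fewer than 2 of Spp1, Arg1 and Gpnmb it was -0.66 [-1.14, -0.17], at 123 CPM against 194 CPM. The 260 BLM cells with at least 2 of these genes were at 72.6 CPM. Classical and nonclassical monocytes had between 30.4 and 76.5 CPM over both libraries, with ratios of 0.38 [-0.49, 1.26] and 0.18 [-0.56, 0.87]. The 29 BLM ILC2s had 284 CPM (36 UMIs), so that Alox5 was present in ILC2s of both libraries. Cells with basophil or mast cell markers, a class too small for the ranking, had 746 CPM in BLM (12 UMIs over 5 cells). In naive they had 317 CPM (12 UMIs over 11 cells). The naive cDC2s had 93.1 CPM. The BLM migratory dendritic cells held 1 UMI, and NK cells 4 in each library.

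Alox5ap encodes the 5-lipoxygenase activating protein, which hands arachidonic acid to the enzyme. It lies on chromosome 5, from 149264767 to 149288153 on the plus strand. It was high in neutrophils, monocytes and both macrophage classes. Classical monocytes had 1290 CPM in BLM and 1395 CPM in naive, neutrophils 1103 and 1358 CPM, nonclassical monocytes 1010 and 923 CPM, alveolar macrophages 921 and 907 CPM and C1q macrophages 723 and 604 CPM. The ratios in these 5 classes ran from -0.30 in neutrophils to 0.26 in C1q macrophages. In alveolar macrophages the ratio was 0.02 [-0.05, 0.09]. B, T and NK cells had between 36.9 and 92.5 CPM. In NK cells 15 of 26 BLM UMIs were in 1 cell. The naive cDC2s had 677 CPM, whereas the BLM migratory dendritic cells had 102 CPM (39 UMIs in 58 cells), which overlapped with BLM NK cells, and the naive ILC2s had 67.1 CPM.

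Ltc4s encodes leukotriene C4 synthase, which makes the first of the cysteinyl leukotrienes. It lies on chromosome 11, from 50236461 to 50238616 on the minus strand. It was found mainly in macrophages. Alveolar macrophages had 182 CPM in BLM (458 UMIs) and 357 CPM in naive (2338 UMIs), a ratio of -0.97 [-1.12, -0.82]. They held 84.9% of all naive Ltc4s UMIs and 29.8% of the BLM ones. A UMI was seen in 82.3% and 89.2% of these cells, and in 16.7% and 29.3% after thinning to 1000 UMIs, against 0.25% and 1.46% of B cells. C1q macrophages had 77.8 CPM (295 UMIs) against 220 CPM (85 UMIs), a ratio of -1.50 [-1.85, -1.14]. Without the Spp1, Arg1 and Gpnmb cells the ratio was -0.55 [-0.99, -0.10], at 151 CPM against 220 CPM. All other classes with 50 cells in a library were at or below 55.2 CPM, and neutrophils had 23.3 and 15.2 CPM (38 and 12 UMIs). NK cells held 11 and 8 UMIs, classical monocytes 9 and 5, nonclassical monocytes 6 and 8, and naive cDC2s 3. ILC2s held 0 UMIs in both libraries, where 3 counts would be 23.7 CPM in BLM and 20.1 CPM in naive. Over all kept cells the level was 69.4 CPM in BLM and 155 CPM in naive, a ratio of -1.16 [-1.25, -1.07], and with the naive class shares it was -0.78. Alveolar macrophages held 36.97% of the UMIs of the naive library and 11.4% of those of the BLM library. Cells with UMIs of Alox5, Alox5ap and Ltc4s together made up 66.9% of BLM and 80.7% of naive alveolar macrophages.

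In B and T cells, Alox5 and Ltc4s were at levels far below the macrophages. Alox5 was at 6.60 CPM in BLM and 13.5 CPM in naive B cells, and at 1.87 and 11.1 CPM in T cells. Ltc4s was at 3.67 and 15.0 CPM in B cells and at 3.27 and 11.1 CPM in T cells. These 4 pairs were more than 2-fold lower in BLM, as were 4.6% of all genes in B cells and 3.83% in T cells. Their ratios ran from -1.03 to -2.57 on 23 to 37 UMIs each, and the interval of Alox5 in B cells included 0. The summed alveolar macrophage markers were also lower there in BLM, at 117 CPM against 205 CPM in B cells and 88.6 CPM against 197 CPM in T cells, whereas the summed C1q macrophage markers were higher, at 147 against 37.7 CPM and 89.1 against 39.7 CPM. The part of free macrophage RNA in these values was not tested.

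Lta4h encodes leukotriene A4 hydrolase, which makes leukotriene B4. It lies on chromosome 10, from 93453411 to 93484875 on the plus strand. It was expressed in lymphoid and myeloid cells alike. NK cells had 171 CPM in BLM and 188 CPM in naive, alveolar macrophages 122 and 127 CPM, nonclassical monocytes 97.9 and 119 CPM and T cells 82.6 and 82.9 CPM. The ratio was -0.01 [-0.33, 0.32] in T cells and -0.06 [-0.25, 0.13] in alveolar macrophages. All 8 classes were within 2-fold, from -0.45 in neutrophils to 0.62 in C1q macrophages, and the intervals of all 8 included 0. Lower levels were found in classical monocytes (41.0 and 48.4 CPM), B cells (35.9 and 42.5 CPM), neutrophils (25.1 and 34.3 CPM) and the naive C1q macrophages (38.9 CPM). The BLM migratory dendritic cells had 21.0 CPM, the naive ILC2s 94.0 CPM and the naive cDC2s 125 CPM.

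Ltb4r1 encodes the high-affinity receptor of leukotriene B4. It lies on chromosome 14, from 55765962 to 55768494 on the plus strand. Nonclassical monocytes had 94.9 CPM in BLM and 74.3 CPM in naive, classical monocytes 68.9 and 66.4 CPM and neutrophils 44.2 and 52.0 CPM, with ratios whose intervals included 0. ILC2s had 111 CPM (14 UMIs) and 121 CPM (18 UMIs), and the naive cDC2s had 93.1 CPM. The BLM cDC2s had 24.6 CPM from 8 UMIs in 45 cells. Dendritic cells of type 1 (cDC1) likewise had 115 CPM in naive (40 UMIs in 26 of 47 cells) and 16.8 CPM in BLM (5 UMIs in 4 of 32 cells). Macrophages were low, at 0.40 and 1.53 CPM in alveolar macrophages and 8.97 CPM in BLM C1q macrophages, with 0 UMIs in naive C1q macrophages, where 3 counts would be 7.77 CPM. The interval of that ratio began at -0.17 and so included 0. In T cells the level was 27.5 CPM in BLM (59 UMIs) and 7.59 CPM in naive (13 UMIs), a ratio of 1.86 [0.98, 2.85], whereas B cells held 0 and 2 UMIs. T cells were split by UMIs of Foxp3 (regulatory), then of Cd8a or Cd8b1 (CD8), then of Cd4 (CD4). Regulatory T cells held 28 of the 59 BLM UMIs, in 20 of 81 cells, and 1 UMI in 21 naive cells. CD8 T cells held 0 UMIs in both libraries. CD4 T cells held 8 BLM UMIs and 1 naive UMI, too few to be compared. T cells with no UMI of these genes had 36.5 CPM (23 UMIs) against 16.5 CPM (11 UMIs), a ratio of 1.14 [0.05, 2.33]. They can include CD4, CD8 or regulatory cells in which these transcripts were not captured. The regulatory T cells were 81 of 721 T cells in BLM and 21 of 584 in naive.

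Ptges and Hpgds encode terminal prostaglandin synthases. Ptges, the inducible prostaglandin E synthase, lies on chromosome 2, from 30889471 to 30929863 on the minus strand. It was sparse, with 84 BLM and 66 naive UMIs in all, a ratio of 0.03 [-0.45, 0.52]. Naive alveolar macrophages held 52 of the 66 naive UMIs, at 7.93 CPM, and the BLM ones 15, at 5.96 CPM, a ratio of -0.41 [-1.35, 0.44]. The 35 BLM stromal cells held 25 UMIs, at 93.8 CPM. In neutrophils 6 and 1 UMIs were seen, in BLM C1q macrophages 7, and in each other class with 50 cells 2 or fewer. Hpgds, the haematopoietic prostaglandin D synthase, lies on chromosome 6, from 65117293 to 65144908 on the minus strand. C1q macrophages had 70.7 CPM in BLM (268 UMIs) and 140 CPM in naive (54 UMIs), a ratio of -0.99 [-1.41, -0.54], and held 63.4% of the BLM and 25.6% of the naive Hpgds UMIs. Without the Spp1, Arg1 and Gpnmb cells the ratio was -0.54 [-1.11, 0.02]. Alveolar macrophages (9.14 and 10.7 CPM) and B cells (14.7 and 11.6 CPM) were low in both libraries, T cells held 11 and 6 UMIs, naive cDC2s 7, and each other class with 50 cells 3 or fewer. Over all kept cells Hpgds was higher in BLM (19.1 against 11.9 CPM, 0.68 [0.44, 0.93]), and with the naive class shares it was -0.29.

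Ptger4 encodes EP4, a receptor of prostaglandin E2 that raises cyclic AMP. It lies on chromosome 15, from 5206661 to 5244187 on the minus strand, and overlaps Ttc33 on the opposite strand. The 58 BLM migratory dendritic cells had 228 CPM and the 12 naive ones 339 CPM, NK cells 206 and 150 CPM, cDC1s 135 and 167 CPM and cDC2s 105 and 136 CPM. Between the libraries the classes went in different directions. B cells had 55.0 CPM in BLM (75 UMIs in 52 cells) and 17.4 CPM in naive (36 UMIs in 29 cells), a ratio of 1.66 [1.07, 2.28]. Thinned to 1000 UMIs the share of B cells with a UMI was 4.73% and 1.53%. As background, neutrophils, the lowest of the 8 classes for this gene, had 11.0 and 12.7 CPM and thinned shares of 0.547% and 1.11%. T cells had 61.6 and 33.9 CPM, a ratio of 0.86 [0.41, 1.33]. Classical monocytes had 57.2 CPM (39 UMIs) against 26.3 CPM (19 UMIs), a ratio of 1.12 [0.29, 1.99]. C1q macrophages had 41.4 CPM (157 UMIs) against 137 CPM (53 UMIs), a ratio of -1.73 [-2.19, -1.25]. Without the Spp1, Arg1 and Gpnmb cells that ratio was -0.62 [-1.21, -0.04], at 89.0 CPM against 137 CPM, and the 260 BLM cells left out were at 32.7 CPM. Nonclassical monocytes had 76.5 and 72.0 CPM, the naive ILC2s 60.4 CPM (9 UMIs), and alveolar macrophages 14.3 and 17.2 CPM. The nonclassical monocytes and alveolar macrophages had ratios of 0.09 [-0.64, 0.77] and -0.27 [-0.85, 0.28].

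**Figure D3:**
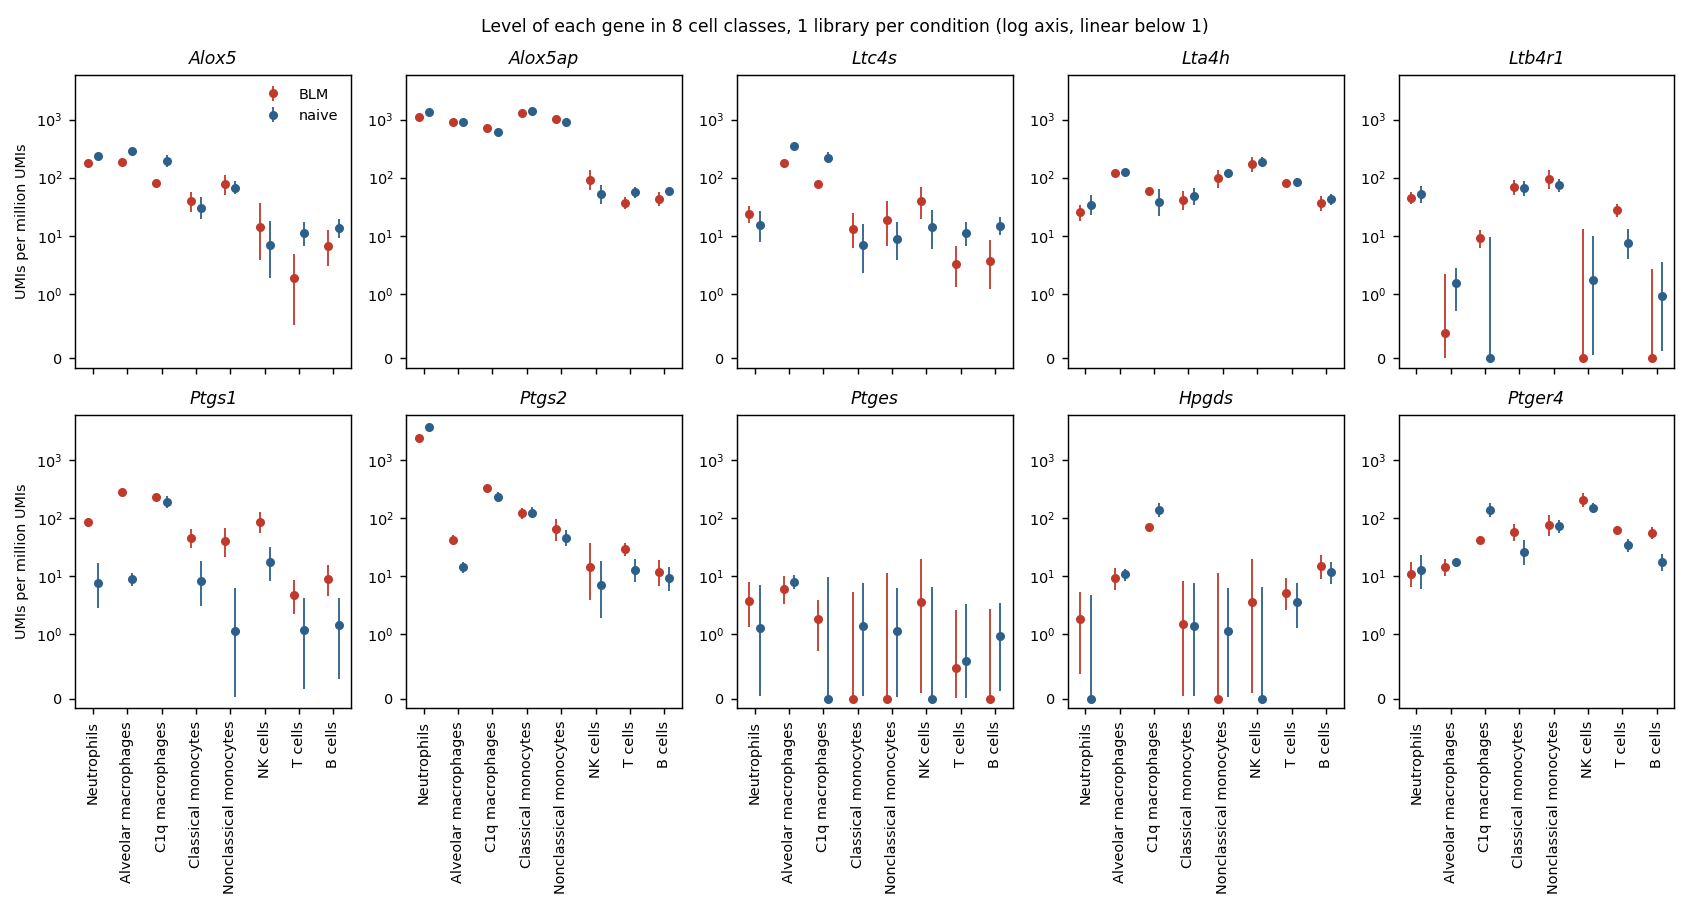
Level of each gene as UMIs per 1000000 UMIs of the class (y axis, logarithmic above 1 and linear below), in 8 classes (x axis), for the BLM (red) and naive (blue) library. Lines are 95% counting intervals. Alox5ap separated the 5 myeloid classes from NK, T and B cells, Ptgs2 was highest in neutrophils, and Ptgs1 in alveolar macrophages stood at 281 against 8.85.

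Taken over the 8 classes, 57 pairs of member and class had 20 or more UMIs in both libraries together. Of these, 9 were 2-fold or more higher in BLM, 7 were 2-fold or more lower and 41 lay between. Neutrophils had 1 higher of 8 members, against 8.78% of all genes with 20 UMIs, and 0 lower, against 4.56%. Alveolar macrophages had 2 higher of 9, against 4.41%, and 0 lower, against 10.4%. C1q macrophages had 0 higher and 3 lower of 9, against 10.8% and 13.5%. Classical monocytes had 2 higher of 7, against 5.24%, and 0 lower, against 4.22%. Nonclassical monocytes had 0 of 6 in either direction, against 3.72% higher and 6.03% lower. NK cells had 1 higher of 4, against 2.55%, and 0 lower, against 6.87%. T cells had 2 higher and 2 lower of 7, against 3.02% and 3.83%. B cells had 1 higher and 2 lower of 7, against 1.48% and 4.6%. The median ratio of the members was -0.22 in alveolar macrophages, where that of all genes was -0.20, and -0.36 in C1q macrophages, where it was -0.09. In C1q macrophages without the Spp1, Arg1 and Gpnmb cells, 0 of 8 members were past 2-fold in either direction, against 5.57% higher and 8.09% lower. Among T cells, the CD8 cells had 0 of 4 past 2-fold, against 2.18% higher and 5.36% lower. The CD4 cells had 0 higher of 3, against 6.54%, and 1 lower, against 6.38%, namely Alox5ap, at 18.9 against 72.6 CPM. The T cells with no UMI of Foxp3, Cd8a, Cd8b1 or Cd4 had 3 higher of 5, against 2.44%, and 0 lower, against 4.67%. These 3 were Ltb4r1, Ptgs2 and Ptger4, and the ratio of Ptgs2 there, 2.04, was 0.88 without the highest cell of each library.

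**Figure D4:**
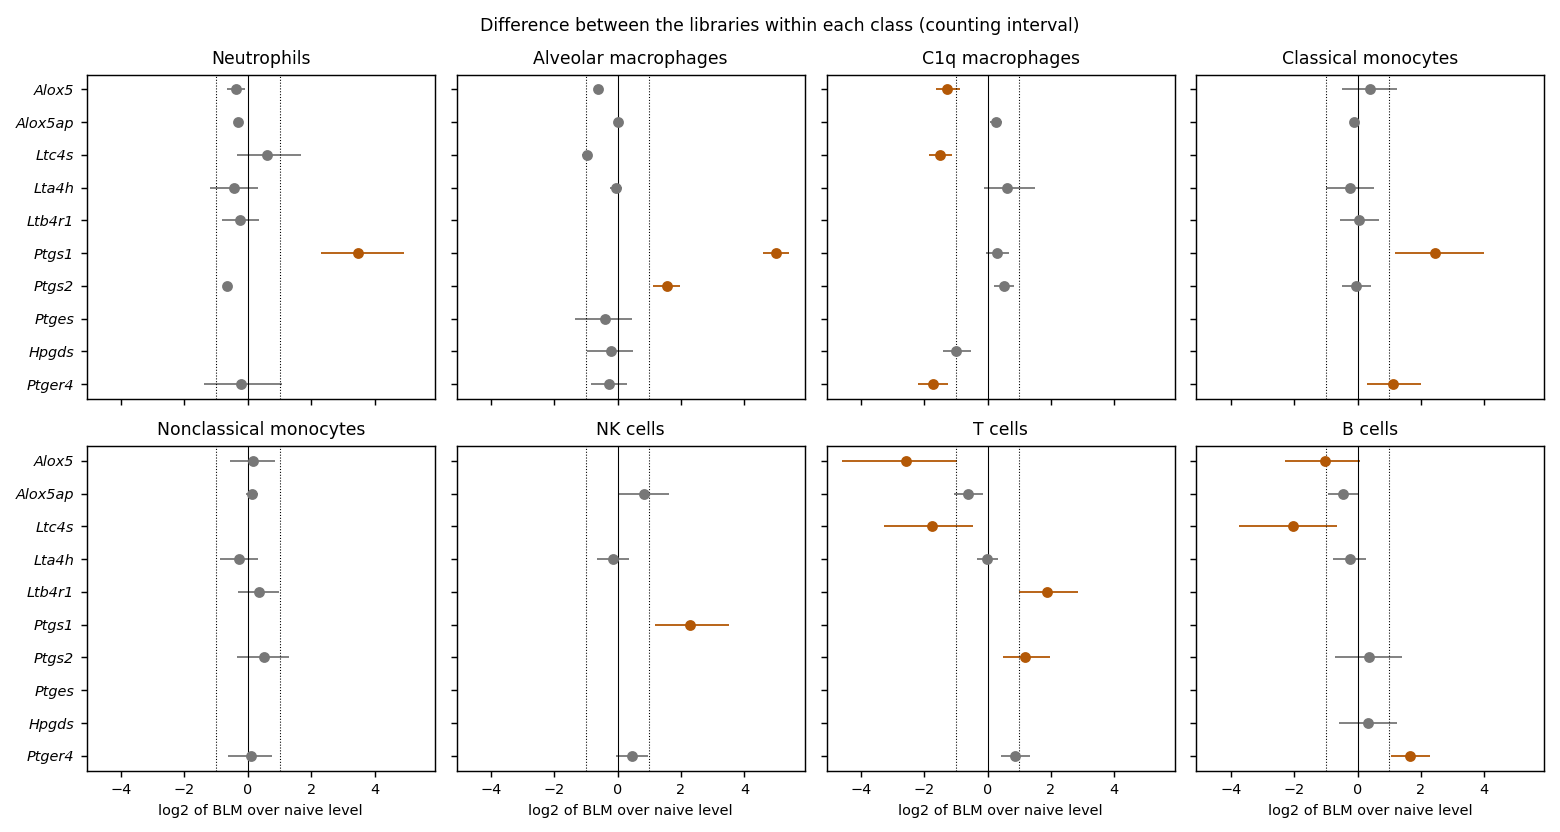
Log2 ratio of BLM over naive (x axis) for each gene with 20 or more UMIs in a class, with its 95% counting interval, by class. Orange points are 2-fold or more apart, dotted lines mark 2-fold, and Ltb4r1 in C1q macrophages, with 0 naive UMIs, is not drawn. Ptgs1 in alveolar macrophages lay farthest from 0, at 4.99, and 41 of the 57 pairs were within 2-fold.

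A list of 41 other genes of these pathways was read in the same way. In the 8 classes 109 pairs had 20 or more UMIs, of which 17 were higher in BLM, 12 were lower and 80 were within 2-fold. In alveolar macrophages 4 of 20 were higher and 2 lower, against the same 4.41% and 10.4%. Fpr2, a receptor that binds the lipid lipoxin A4 among other ligands, was at 276 CPM in BLM and 689 CPM in naive, a ratio of -1.32 [-1.44, -1.20]. Hpgd, the enzyme that inactivates prostaglandins, was at 42.5 CPM and 12.5 CPM, a ratio of 1.77 [1.34, 2.20]. Ptgr1, a reductase that inactivates prostaglandins and leukotriene B4, was at 77.1 and 26.8 CPM, a ratio of 1.52 [1.22, 1.83]. Cysltr1, a receptor of cysteinyl leukotrienes, had 63 and 71 UMIs (1.21 [0.70, 1.72]), and Pla2g7, a lipase that breaks down platelet-activating factor, at 15.5 and 3.05 CPM (2.35 [1.53, 3.20]). The epidermal-type lipoxygenase Aloxe3 had 11 and 59 UMIs (-1.04).

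In C1q macrophages 4 of 23 were higher and 4 lower, against the same 10.8% and 13.5% of all genes. Alox15, the 12/15-lipoxygenase, was at 85.7 CPM in BLM and 601 CPM in naive, a ratio of -2.81 [-3.06, -2.56]. Pla2g2d, a secreted phospholipase A2, was at 20.6 and 345 CPM (-4.07 [-4.49, -3.65]). Hpgd was at 70.1 and 288 CPM, a ratio of -2.04 [-2.36, -1.70], the opposite direction to that in alveolar macrophages. Ptgis, prostacyclin synthase, was at 15.8 and 49.2 CPM (-1.64 [-2.40, -0.81]). Higher were Dpep2, a peptidase that converts leukotriene D4 (132 and 44.0 CPM, 1.58 [0.89, 2.37]), Ptgr1 (71.7 and 25.9 CPM, 1.47), Cyp4f18, an oxidase of leukotriene B4 (100.2 and 46.6 CPM, 1.10), and Plaa (34.8 and 10.4 CPM, 1.75). Of these 8 genes, Plaa, Dpep2, Cyp4f18, Ptgr1, Pla2g2d and Hpgd were also past 2-fold in the same direction without the Spp1, Arg1 and Gpnmb cells. There, 4 of 17 were higher and 2 lower, against 5.57% and 8.09% of all genes.

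In the other classes most calls rested on fewer UMIs. Classical monocytes had 2 of 14 higher (5.24% of all genes), Dpep2 (1.31 [0.63, 2.01]) and Fpr2 (1.01 [0.53, 1.49]), and 1 lower (4.22%), Pla2g4a, the cytosolic phospholipase A2, on 7 and 21 UMIs. In T cells 2 of 16 were higher and 3 lower, against 3.02% and 3.83%. Cysltr2, a receptor of cysteinyl leukotrienes, was at 37.8 and 17.5 CPM (1.11 [0.49, 1.76]), Ptger2 had 16 against 5 UMIs, and Fpr2, Cyp4f18 and Ptgir were lower. B cells had 0 of 10 higher, against 1.48%, and 2 lower, Fpr2 and Dpep2, against 4.6%. Fpr2 in B and T cells was 6.60 and 4.67 CPM in BLM against 22.7 and 26.3 CPM in naive, beside the 276 and 689 CPM of alveolar macrophages. Neutrophils had 5 of 15 higher (Pla2g4a, Dpep2, Cysltr1, Abcc1 and Abcc4), against 8.78% of all genes, and 0 lower, against 4.56%. Each of the 5 rested on 17 to 24 BLM UMIs and 2 to 4 naive UMIs. NK cells had 0 of 3 past 2-fold, against 2.55% of all genes higher and 6.87% lower. Nonclassical monocytes had 0 of 8, against 3.72% higher and 6.03% lower.

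The genes whose levels most resembled each member over 19 pairs of class and library were found among 11015 genes by Pearson's r of log2(CPM + 10). The libraries share classes and depth within a class, so r is a description. Ptgs1 was nearest to 4930430E12Rik (0.92), Igf1 (0.88), a growth factor gene, and Colec12 (0.84), a scavenger receptor gene. Ptgs2 was nearest to Smim3 (0.94), Rabgef1 (0.90) and Adam8 (0.89). Ltc4s was nearest to Snx24 (0.95), Gas2l1 (0.94) and Pla2g15 (0.93), a lysosomal phospholipase A2. Alox5 was nearest to Acsl1 (0.91), Mctp1 (0.88) and Ppt1 (0.84), and Alox5ap to Ralb (0.97), Csf2ra (0.97), a receptor chain for GM-CSF, and Gda (0.96). Hpgds was nearest to Cd276 (0.95), Col14a1 (0.93) and Pf4 (0.92), and Pf4 was one of the C1q markers. The nearest genes of Lta4h (Mmgt2, Rps6ka1 and Me2), Ltb4r1 (Krt80, Oaz2 and Mefv), Ptges (Liph, Ffar2 and Ptger2) and Ptger4 (Tpm3, Pogk and Sema4c) had r between 0.78 and 0.89.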

How the data were processed

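Living CD45+ cells from lungs of naive and BLM-treated mice were profiled with the BD Rhapsody WTA system. The authors deposited 1 table of raw UMI counts per library, made per the file headers with the BD Rhapsody WTA pipeline version 1.8 on GRCm38 and GENCODE vM19, with UMIs error-corrected. A gene absent from a table was taken as 0. Cells were kept if at least 200 genes were detected and no more than 15% of their UMIs were mitochondrial. A cell received a class when it expressed 3 or more of the 8 markers of that class and at least 2 more than of any other (17 lists). Cells between classes were left out and no doublet caller was run. UMIs were summed per class and library. Exact Poisson intervals were used for levels, exact binomial (Clopper-Pearson) intervals for shares, and exact conditional intervals for ratios, all at 95%. With 1 library per group no test was possible, and genes with 20 or more UMIs were read against a 2-fold threshold. A level of 0 was replaced by a floor of 3 counts per library and class. Python 3.11.15, numpy 2.4.6 and scipy 1.17.1 were used, and the ratio and call were checked on simulated counts. These counts were drawn from a Poisson model without differences between cells. The check therefore does not cover genes whose UMIs lie mostly in a few cells. The 10 genes are described in the classes with 50 or more cells in either library, and smaller classes were named after their values were seen. Of the 41 other pathway genes, those past 2-fold are named, with the 3 genes most similar to each member. The members, marker lists and pathway list were chosen with earlier results of these data known. The counting is not stated to use strand, so Ptger4 and Ttc33, and Ltc4s and Gm26542, which overlap on opposite strands, may share reads.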

Additional observations from a re-analysis of the deposited data

Results flagged for a closer look

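Ptger4 was set apart because classes went in opposite directions. It was higher in BLM in B cells (1.66 on the log2 scale) and classical monocytes (1.12), and lower in C1q macrophages (-1.73). The difference between the classes was not tested. Without the Spp1, Arg1 and Gpnmb cells the ratio in C1q macrophages was -0.62.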

How the results depend on the processing

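Levels, ratios and counts were computed again under 8 other settings of the gate, filters and scaling, and under 2 chosen after seeing the data (cells with any macrophage marker left out of the other classes, and the highest cell left out). The counts were also taken at other UMI and fold thresholds. Of the 57 ratios, 51 stayed within their counting interval with classes assigned by whole profile. Of the 16 pairs past 2-fold, 0 changed sign under any of the 10 settings that gave them a value. With macrophage-marked cells left out, no value was left for Alox5 and Ltc4s in B and T cells. The same held for Ptgs1 in NK cells and for Ptgs1 and Ptger4 in classical monocytes. Alox5 in T cells also had no value at a mitochondrial limit of 10%. Among the other pairs, Ltc4s in neutrophils ran from -0.66 to 0.68 and Alox5ap in NK cells from -0.46 to 0.86. Ptgs1 in alveolar macrophages ran from 4.68 to 5.12, Ptgs1 in neutrophils from 2.74 to 3.50, Ptgs2 in neutrophils from -0.76 to -0.46, Ltc4s in C1q macrophages from -1.84 to -1.33 and Ltc4s in alveolar macrophages from -1.08 to -0.93, which crosses 2-fold. Pairs no longer past 2-fold under at least 1 of these were Alox5 and Ltc4s in B cells, Ptger4 in classical monocytes and Ptgs2 in T cells. Ptgs1 in NK cells had under 20 UMIs or too few cells under 3 of the 10. The count of members higher in BLM, 9 in the main setting, was 14 with the gate of 2 markers and a gap of 1, and 14 with 10 or more UMIs. The count lower in BLM, 7, was 11 with whole profiles, 4 without cells carrying macrophage markers, where 9 of the 16 pairs had a value, 3 with 50 or more UMIs and 12 at 1.5-fold. The causes were not tested, except that the UMI and fold settings change which pairs are counted. The share over all genes was taken only in the main setting, so the counts under other settings have no background beside them. No paired analysis was possible because each group had 1 library. Depth limits Ptges above all, with 84 BLM and 66 naive UMIs.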
